A study of Mus musculus with 2 samples.

Results

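The 10 genes described here encode enzymes and helpers that act on collagen after its translation: *P4ha1*, *P4hb*, *Plod1*, *Plod2*, *Lox*, *Loxl1*, *Loxl2*, *Serpinh1*, *Pcolce* and *Crtap*. They were chosen by name, for their role, from the 32285 genes counted in 2 single-cell RNA-seq libraries of tdTomato-sorted cells from mouse limbs, and all 10 had counts. Both libraries came from Clec3b.creERT2; Ai14.R26.tdTomato mice, in which a CreERT2 knocked in at the end of the *Clec3b* coding region switches on tdTomato for good in cells that express *Clec3b* at the time of tamoxifen, and in their descendants. Tamoxifen was given 2 weeks before a stabilized femoral fracture, and tissue was taken 3 weeks after surgery. The intact library holds cells of unfractured femoral shafts with the muscle around them. The callus library holds cells of the fracture calluses. For each, tissue of the same 3 littermates was pooled before collagenase digestion, sorting and 3′ sequencing on the 10× Chromium platform, so there is 1 library per condition and no mouse can be told from another. No test between conditions was therefore possible, and every interval below is a 95% interval of counting error alone.

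A collagen chain is modified inside the endoplasmic reticulum before it folds into a triple helix. Prolyl 4-hydroxylase, a complex of a catalytic alpha chain such as P4HA1 with the disulfide isomerase P4HB, hydroxylates prolines that stabilize the helix. Lysyl hydroxylases (the PLOD proteins) modify lysines that later form crosslinks, CRTAP is part of the complex that 3-hydroxylates prolines, and SERPINH1 (HSP47) is a chaperone that binds procollagen. Outside the cell PCOLCE speeds the removal of the C-terminal propeptide, and the copper enzymes LOX, LOXL1 and LOXL2 oxidize lysines so that fibres become crosslinked. In bone, loss of *Crtap*, *Serpinh1* or *Plod2* function is a known cause of brittle bone disease.

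The intact library held 1872 cell barcodes and 12112002 unique molecular identifiers (UMIs, each counting 1 captured transcript), and the callus library 3987 barcodes and 36714322 UMIs. Cells with 500 genes or more and no more than 10% of UMIs from mitochondrial genes were kept, which left 1207 and 3295, and the libraries shared 1 barcode. Despite the sort, 56.1% of the kept intact cells and 71.4% of the kept callus cells were blood cells by their markers, and 23.0% and 8.65% were stromal. Although the labels give male mice, 90.5% of intact and 94.4% of callus fibroblasts held a UMI of *Xist*, which is made from an inactive X, and 4 Y-linked genes held 1 UMI in all kept cells together. Single cells were assigned to types by summed UMIs of marker lists that hold none of the 10 genes. This gave 208 intact and 122 callus *Pi16*-type fibroblasts (led by *Pi16* and *Dpp4*), 42 and 13 *Col15a1*-type fibroblasts (*Col15a1*, *Smoc2*), 4 and 34 tendon-like fibroblasts (*Thbs4*, *Cilp*, *Comp*), and 21 and 27 fibroblasts between these types. Osteoblasts (*Bglap*, *Ibsp*, *Dmp1*) numbered 34 and bone marrow stromal cells (BMSC; *Lepr*, *Cxcl12*, *Adipoq*) 40 in the callus, against 1 and 0 in the intact library. A further 2 intact and 15 callus stromal cells met none of these classes. They count in the stromal totals but are not among the gated stromal types described below. Median UMIs of the blood and endothelial lists were 0 in each of these stromal types, and those of the chondrocyte list at most 1 in types with more than 1 cell.

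Each of the 10 genes was higher in stromal than in blood cells, with clear differences in how closely each kept to stroma. In UMIs per 1000000 UMIs of a group (CPM), 7 of the 10 genes were at least 10-fold higher in stromal than in blood cells in both libraries, where 11.7% of all 11519 genes compared were so in the intact and 11.2% of 13794 in the callus library. None was 10-fold lower, as 7.99% and 6.48% of genes were. *Lox* had no UMI in intact blood cells, which allows up to 0.686 CPM, against 86.7 CPM in intact stroma. That is 126-fold higher at that limit, with an interval from 102-fold upwards. In the callus *Lox* stood at 416 CPM in stroma and 0.143 CPM in blood. *Loxl1*, *Pcolce* and *Serpinh1* differed likewise in the intact library, by 1087-fold (300 to 8984), 483-fold (206 to 1489) and 538-fold (261 to 1340). They had only 2, 5 and 7 UMIs in intact blood cells, and these intervals overlap. The genes under the 10-fold line were *P4hb*, *Plod1* and *P4ha1*. *P4hb* was only 3.69-fold (3.24 to 4.22) higher in stroma in the intact and 1.82-fold (1.69 to 1.95) in the callus library, and callus T and NK cells, at 351 CPM, lay among the stromal types. *P4ha1* was 8.67-fold (6.57 to 11.6) and 8.96-fold (7.84 to 10.2) higher in stroma, both intervals that include 10-fold, and *Plod1* 4.86-fold and 7.13-fold. *Crtap*, at 20.8-fold and 15.6-fold, was the least restricted of the 7.

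**Figure D1:**
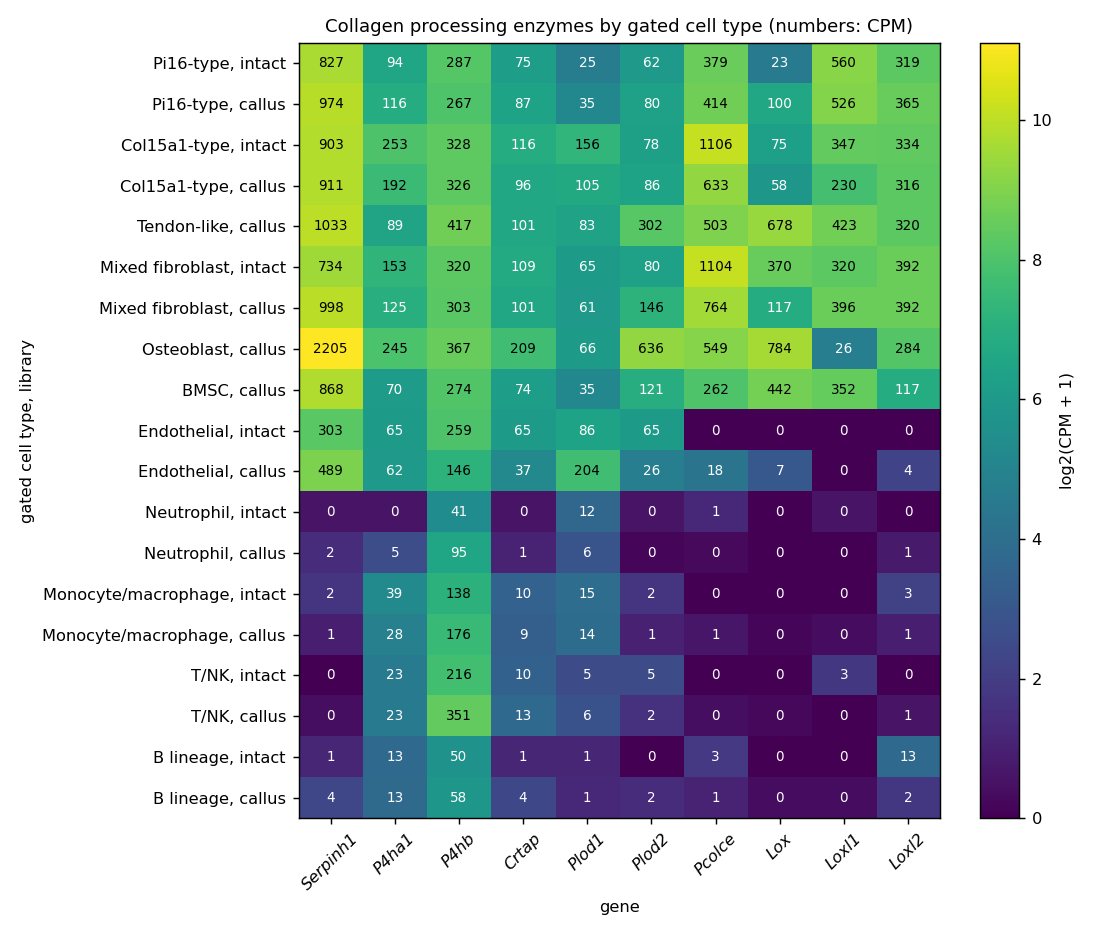
Level of each gene in each gated cell type and library with at least 10 cells, as log2(CPM + 1) in colour with the CPM printed in each cell of the map. The lowest stromal values are *Lox* (23.4 CPM) and *Plod1* (24.7 CPM) in intact *Pi16*-type cells and *Loxl1* in osteoblasts (26.3 CPM). Endothelial rows hold *Serpinh1* and *Plod1* but little of the lysyl oxidases. Over all blood cells together, which have no row here, *P4hb* was the highest gene, at 81.4 CPM in the intact and 175 CPM in the callus library.

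To compare cells at equal depth, each cell with enough UMIs was reduced to 2000 UMIs. Shares at that depth are the expected ones, from each cell's chance of keeping a UMI. By this measure 0.743% of intact and 0.644% of callus stromal cells would carry none of the 10 genes, against 84.6% and 77.3% of blood cells. Endothelial cells fell between, at 18.5% and 16.9%. Their 51 callus cells had *Plod1* at 204 CPM (154 to 266) and *Serpinh1* at 489 CPM (410 to 579), but *Loxl1* at 0 of 273896 UMIs, which allows up to 10.95 CPM, and *Lox* at 7.30 CPM.

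RefSeq promoters were matched by symbol for 6 of the 10 genes (not for *Plod2*, *Lox*, *Loxl1* and *Loxl2*). Of these, 4 are shown because genes under and over the 10-fold line of stroma over blood differed in CpG sites there. Each sequence is the 250 bases before the annotated start on GRCm38.p6, read 5′ to 3′ on the gene's strand, with CpG sites in capitals. They lie at chr11:120573254-120573503 (minus strand, *P4hb*), chr10:59323046-59323295 (plus, *P4ha1*), chr7:99353240-99353489 (minus, *Serpinh1*) and chr5:137611405-137611654 (minus, *Pcolce*). The *Pcolce* window lies within the longer span that GENCODE gives the gene.
P4hb: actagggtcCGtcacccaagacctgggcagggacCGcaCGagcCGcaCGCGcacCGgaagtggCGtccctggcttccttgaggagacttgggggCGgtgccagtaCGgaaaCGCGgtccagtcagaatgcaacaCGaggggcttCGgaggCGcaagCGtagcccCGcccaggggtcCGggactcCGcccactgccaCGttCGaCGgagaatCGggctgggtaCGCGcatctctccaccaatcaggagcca
P4ha1: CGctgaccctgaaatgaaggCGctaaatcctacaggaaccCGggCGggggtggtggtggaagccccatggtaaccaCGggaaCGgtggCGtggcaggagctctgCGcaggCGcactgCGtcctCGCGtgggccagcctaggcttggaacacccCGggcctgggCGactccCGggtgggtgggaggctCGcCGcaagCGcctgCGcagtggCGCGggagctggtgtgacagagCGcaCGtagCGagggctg
Serpinh1: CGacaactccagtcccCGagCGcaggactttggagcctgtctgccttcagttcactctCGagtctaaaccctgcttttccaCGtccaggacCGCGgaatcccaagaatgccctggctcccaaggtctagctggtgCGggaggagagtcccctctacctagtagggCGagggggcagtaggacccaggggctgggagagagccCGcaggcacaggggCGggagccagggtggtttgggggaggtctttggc
Pcolce: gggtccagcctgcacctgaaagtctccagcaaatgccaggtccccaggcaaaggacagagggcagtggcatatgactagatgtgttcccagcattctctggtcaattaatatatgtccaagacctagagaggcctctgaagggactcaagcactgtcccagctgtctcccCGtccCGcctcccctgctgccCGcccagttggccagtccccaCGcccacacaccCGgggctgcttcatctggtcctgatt
CpG sites numbered 25 in *P4hb*, 24 in *P4ha1* and 16 in *Plod1*, the genes less than 10-fold higher in stroma. They numbered 11 in *Serpinh1*, 10 in *Crtap* and 5 in *Pcolce*, which were more than 10-fold higher, and the median of all 32851 promoters was 6. These are 6 genes, and the split is a description. *P4ha1* lay within counting error of the 10-fold line. In callus blood cells *Plod1* and *Crtap*, on opposite sides of that line, had like levels of 7.99 and 7.91 CPM. The letters ACGTG or GCGTG, on either strand the core that hypoxia-inducible factors can bind, occurred in each of the 6 windows and in 38.6% of all promoters. Each of these letter strings holds a CpG, and every window but that of *Pcolce* had more CpG sites than the median. Promoters of like CpG number were not compared, and a match is not a site.

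*Serpinh1* (ENSMUSG00000070436, chr7:99345376-99353239 on GRCm38, minus strand), the collagen chaperone, was present in every stromal type and highest in osteoblasts. It stood at 2205 CPM (2104 to 2311) in the 34 callus osteoblasts. In the other gated stromal types of at least 10 cells it lay between 734 CPM in intact fibroblasts between types and 1033 CPM in callus tendon-like cells. The osteoblast interval overlapped none of these, whereas tendon-like (927 to 1147), callus *Pi16*-type (913 to 1039), callus *Col15a1*-type (737 to 1113) and intact *Col15a1*-type (802 to 1014) fibroblasts overlapped each other. Single osteoblasts ranged from 284 CPM through a median of 1742 to 4842 CPM, and none was without a UMI. At 2000 UMIs per cell *Serpinh1* was found in 93.0% of osteoblasts, 86.7% of callus tendon-like cells and 83.3% of BMSC.

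The prolyl hydroxylase genes differed in range. *P4ha1* (ENSMUSG00000019916, chr10:59323296-59373304, plus strand), the catalytic alpha chain, was highest in intact *Col15a1*-type fibroblasts at 253 CPM (201 to 315) and in osteoblasts at 245 CPM (212 to 282), which could not be separated. It was 192 CPM in callus *Col15a1*-type cells, 116 and 93.6 CPM in callus and intact *Pi16*-type cells, 88.8 CPM in tendon-like cells and 70.4 CPM in BMSC. *P4hb* (ENSMUSG00000025130, chr11:120560298-120573253, minus strand), its partner and a general disulfide isomerase, was the flattest of the 10 genes over the stromal types. Its highest level, 417 CPM in tendon-like cells, was 1.56 times its lowest, 267 CPM in callus *Pi16*-type cells. *Crtap* (ENSMUSG00000032431, chr9:114375134-114390675, minus strand), of the prolyl 3-hydroxylase complex, was 209 CPM (179 to 243) in osteoblasts and 74.3 to 116 CPM in the other gated stromal types of at least 10 cells. The osteoblast interval overlapped only that of the 21 intact fibroblasts between types (61.0 to 179.7).

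The lysyl hydroxylase genes were both lowest in intact *Pi16*-type cells and peaked in different types. *Plod1* (ENSMUSG00000019055, chr4:147909753-147936767, minus strand) was highest among these types in the *Col15a1* type, where intact cells had 156 CPM (116 to 206) and callus cells 105 CPM (52.6 to 189). It was 24.7 and 35.3 CPM in intact and callus *Pi16*-type cells, 82.9 CPM in tendon-like cells, 66.4 CPM in osteoblasts and 35.2 CPM in BMSC. *Plod2* (ENSMUSG00000032374, chr9:92542223-92608428, plus strand), whose product hydroxylates lysines in the telopeptides at the ends of the collagen chain, was highest in osteoblasts at 636 CPM (582 to 694), then in tendon-like cells at 302 CPM (246 to 366). Neither interval overlapped the other or that of any other named stromal type in the callus. It was 146 CPM in callus fibroblasts between types, 121 CPM in BMSC and 61.8 to 86.3 CPM in *Pi16*-type and *Col15a1*-type cells of both libraries. Of the 34 osteoblasts 2 had no *Plod2* UMI, against 137 of 208 intact *Pi16*-type cells, which are shallower.

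*Pcolce* (ENSMUSG00000029718, chr5:137605103-137613784, minus strand), the enhancer of propeptide removal, was highest in *Col15a1*-type fibroblasts and fibroblasts between types of the intact tissue. It stood at 1106 CPM (994 to 1228) in the 42 *Col15a1*-type cells and at 1104 CPM in the 21 between types. No cell of either group was without a UMI, and the same held for osteoblasts and *Col15a1*-type cells of the callus. It was 764 CPM in callus fibroblasts between types and 633 CPM in callus *Col15a1*-type cells. Osteoblasts had 549 CPM, tendon-like cells 503 CPM, intact and callus *Pi16*-type cells 379 and 414 CPM and BMSC 262 CPM (203 to 333). BMSC were the gated stromal type with the least *Pcolce*, below the intact *Pi16*-type interval of 349 to 411.

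*Lox* (ENSMUSG00000024529), *Loxl1* (ENSMUSG00000032334, chr9:58287738-58313186, minus strand) and *Loxl2* (ENSMUSG00000034205, chr14:69609068-69695834, plus strand), the lysyl oxidases, were unlike each other. *Lox* spanned 33.5-fold over the gated stromal types of at least 10 cells, from 23.4 CPM (16.4 to 32.4) in intact *Pi16*-type cells to 784 CPM (724 to 848) in osteoblasts. Tendon-like cells were close below at 678 CPM (593 to 771), with overlapping intervals, and BMSC followed at 442 CPM (364 to 531). *Pi16*-type cells of the callus had 99.7 CPM, and *Col15a1*-type cells 75.01 CPM in the intact and 57.5 CPM in the callus library. Fibroblasts between types had 370.4 and 117 CPM. *Loxl1*, an enzyme best known for crosslinking elastin, spanned 21.3-fold the other way. It was highest in *Pi16*-type cells, where the intact library had 559.9 CPM (523 to 599) and the callus 526 CPM (481 to 573), and lowest in osteoblasts at 26.3 CPM (16.3 to 40.2). *Loxl2* was nearly level over the fibroblast types, from 316 to 392.2 CPM in those of at least 10 cells, with osteoblasts at 284 CPM (248 to 324) and BMSC lowest at 117 CPM (79.1 to 167).

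**Figure D2:**
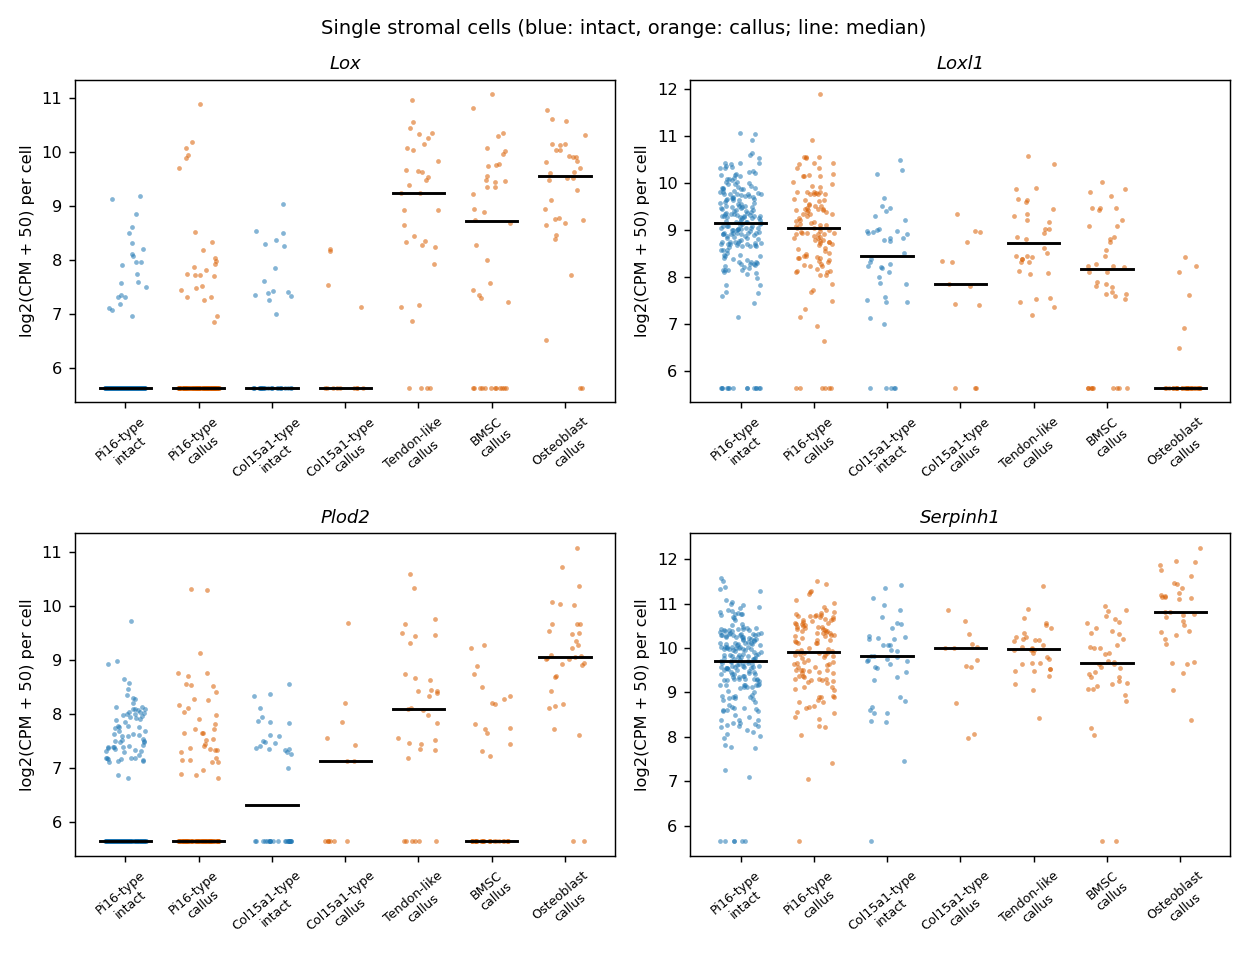
Level per single cell, as log2(CPM + 50), of *Lox*, *Loxl1*, *Plod2* and *Serpinh1* in stromal cells of the intact library (blue) and the callus (orange), each point a cell and each line a median. Among the types plotted, the *Lox* medians are above 0 UMIs only in tendon-like cells, BMSC and osteoblasts, whereas the *Loxl1* median is at 0 UMIs only in osteoblasts, of which 28 of 34 had none.

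The cell-level values showed where a group mean stood for most cells and where it did not. *Lox* was found in 32 of 34 osteoblasts and 30 of 34 tendon-like cells, with medians of 704 and 553 CPM. It was found in 28 of 40 BMSC with a median of 369.8 CPM. In *Pi16*-type cells it came from few cells. Of the 96 *Lox* UMIs in 122 callus *Pi16*-type cells, 62.5% lay in 5 cells, of which the highest had 24 UMIs, and 96 cells had none. In those 5 cells the *Pi16*-type list had a median of 21 UMIs, against 38 in all callus *Pi16*-type cells, the tendon-like list a median of 0, and the osteoblast and blood lists no UMI. The same concentration held for *Loxl1* in osteoblasts, where 95.2% of its 21 UMIs lay in 5 cells, and for *Loxl2* in osteoblasts, where 69.6% of 227 UMIs did. *Loxl1* in *Pi16*-type cells was spread over 194 of 208 intact and 116 of 122 callus cells.

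The callus and the intact tissue were compared first over all fibroblasts, 196 callus and 275 intact cells. A gene was called here at a CPM ratio of at least 1.5 in either direction, given at least 20 UMIs in both groups together. Of the 10 genes, 2 were called higher in the callus and 0 lower, where 12% of 9990 genes were called higher and 9.69% lower. *Lox* was 73.8 CPM in intact and 218 CPM in callus fibroblasts, a ratio of 2.95 (2.43 to 3.59). *Plod2* was 66.0 and 136 CPM, a ratio of 2.06 (1.65 to 2.57). The other 8 genes had ratios from 0.902 for *Pcolce* to 1.17 for *Serpinh1* (1.09 to 1.26).

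The share of tendon-like cells moved with these differences, from 4 of 275 intact to 34 of 196 callus fibroblasts, and in the callus tendon-like cells were the fibroblasts richest in both genes. The part of these shares in the ratios was not tested beyond equal weighting. Equal weights were given to the *Pi16*, *Col15a1* and tendon-like types in both libraries, and fibroblasts between types were left out. *Plod2* was then still called higher in the callus, while the log2 ratio of *Lox* became −0.48. Both values rest on the 4 intact tendon-like cells, which had *Lox* at 1068 CPM (39 UMIs) and *Plod2* at 82.2 CPM (16.9 to 240.1; 3 UMIs). Within the *Pi16* and *Col15a1* types *Plod2* was not called.

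Within *Pi16*-type cells only *Lox* was called among the 10 genes, and it was higher in the callus (11.7% of 8892 genes were called higher and 8.92% lower). It was 23.4 CPM in intact and 99.7 CPM in callus cells, a ratio of 4.26 (2.88 to 6.43), and its ratio was between 2.80 and 4.34 under all alternative settings tried for this comparison. With each group's 5 richest cells left out, 19 UMIs remained in 203 intact and 36 UMIs in 117 callus cells. At 2000 UMIs per cell, the expected share of *Pi16*-type cells with *Lox* was 4.43% in the intact library, against 0% of blood cells (0 of 654, which allows up to 0.459%), and 10.1% in the callus, against 0.0505% of blood cells. Counted in 1 random draw, the *Pi16*-type shares were 9 of 197 cells (2.11% to 8.50%) and 11 of 115 cells (4.87% to 16.5%), whose intervals overlap. *Plod2* was 61.8 and 80.0 CPM, a ratio of 1.29 (0.946 to 1.77), and was not called. *Serpinh1* was 827 and 974 CPM, with a ratio of 1.18 whose interval of 1.08 to 1.28 stayed above 1.

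In *Col15a1*-type cells, 13 from the callus, no gene of the 10 was called higher and 2 were called lower in the callus (18.5% and 19.5% of 3558 genes). *Pcolce* was 1106 CPM in intact and 633 CPM in callus cells, 1.75-fold (1.34 to 2.31) lower. *Loxl1* was 347 and 230.1 CPM, 1.51-fold (0.963 to 2.45) lower, an interval that includes no difference. In the fibroblasts between types *Lox* was 3.16-fold (1.97 to 5.17) lower in the callus, opposite to *Pi16*-type cells, and *Plod2* 1.82-fold (0.907 to 3.97) higher, 1 of 10 in each direction (22.5% of 3239 genes higher, 14% lower). Of the 51 intact *Lox* UMIs there, 46 lay in 5 cells and 5 in the other 16. In those 5 cells the tendon-like list had a median of 11 UMIs, against 5 in all 21, and its part in the difference was not tested.

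**Figure D3:**
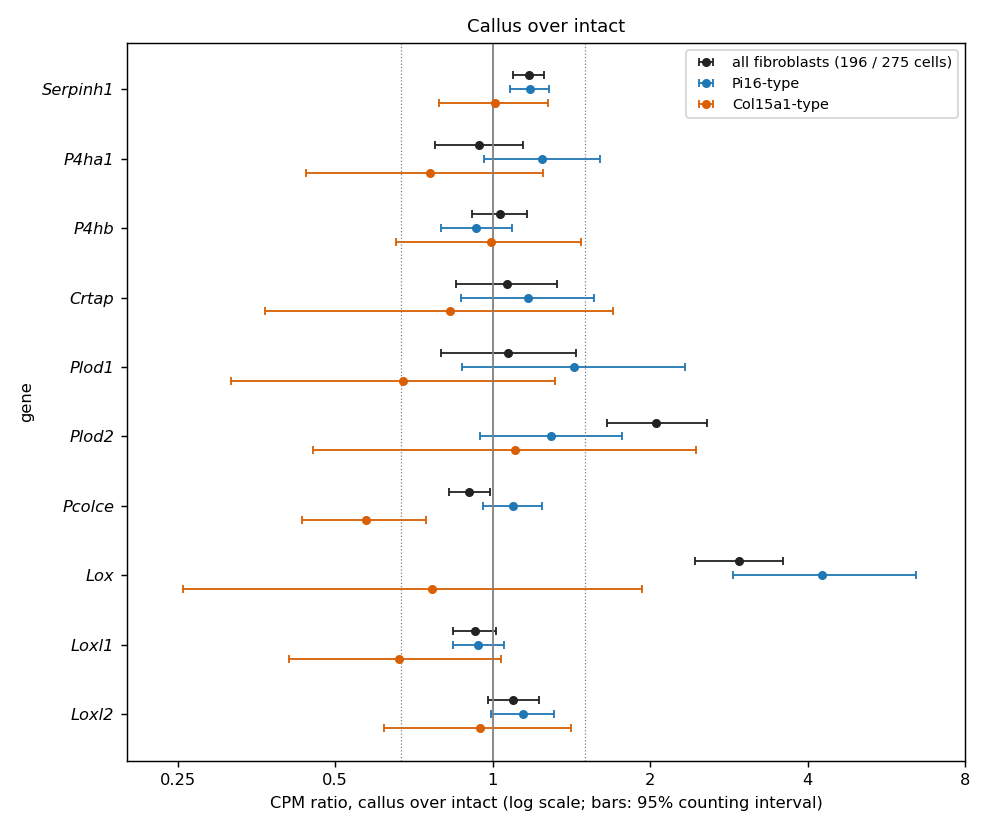
CPM ratio of callus over intact cells on a log scale for each gene, over all fibroblasts (black; callus and intact cell numbers in the legend), *Pi16*-type (blue) and *Col15a1*-type cells (orange), with 95% counting intervals and dotted lines at 1.5-fold. *Lox* lies at 2.95 over all fibroblasts and 4.26 in the *Pi16* type, *Plod2* at 2.06 over all fibroblasts, and the intervals of the *Col15a1* type are wide.

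The fibroblast types were then compared with each other. In the intact library *Col15a1*-type cells had 5 genes called higher and 1 lower than *Pi16*-type cells (19.6% of 8106 genes higher, 22.1% lower). *Plod1* was 156 against 24.7 CPM, 6.32-fold (4.07 to 9.91) higher. *Pcolce* was 2.92-fold (2.55 to 3.34), *P4ha1* 2.70-fold (2.03 to 3.57), *Lox* 3.20-fold (1.83 to 5.52) and *Crtap* 1.55-fold (1.04 to 2.26) higher. The *Crtap* call was lost under 3 settings. Its log2 ratio was 0.042 in 1 random draw of 2000 UMIs per cell and 0.26 without its 5 richest cells, and the call was also lost under a stricter gate. By the mean over cells, which has no draw, the log2 ratio of *Crtap* was 0.88, and without the deepest 5% of cells 0.90. *Loxl1*, at 347 against 559.9 CPM, was 1.61-fold (1.32 to 1.98) lower, and was short of 1.5-fold once the deepest 5% of cells were left out and in the random draw (−0.35 on the log2 scale). In the callus, with 13 *Col15a1*-type cells, *Plod1*, *P4ha1* and *Pcolce* were called higher, and *Loxl1* and *Lox* lower (3 higher and 2 lower; 22% and 23.6% of 6628 genes). *P4ha1* was 1.65-fold (0.9696 to 2.67), an interval that includes no difference, and *Pcolce* 1.53-fold (1.16 to 1.98) higher. Without the 5 richest cells of each group the log2 ratio of *P4ha1* was 0.14 and that of *Pcolce* turned to −0.094, and *Plod1* alone was called higher. That setting takes 5 of 13 *Col15a1*-type but 5 of 122 *Pi16*-type cells, always the richest, so it can lower these ratios by itself. There *Loxl1* was 230.1 against 526 CPM, 2.28-fold (1.52 to 3.60) lower, and *Plod1* 2.99-fold (1.36 to 6.03) higher. *Lox* had 6 UMIs in the callus *Col15a1*-type cells, and its ratio of 0.577 had an interval of 0.207 to 1.30. Of these 13 cells 9 had no *Lox* UMI, so none was left without the 5 richest cells. The log2 ratio of 0.23 in that setting comes from a floor of 3 counts and is no measured reversal.

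Tendon-like cells of the callus had 4 of the 10 genes called higher than callus *Pi16*-type cells and 0 lower (15.3% of 7191 genes higher, 24.1% lower). *Lox* was 678 against 99.7 CPM, 6.80-fold (5.33 to 8.72) higher. *Plod2* was 302 against 80.0 CPM, 3.77-fold (2.78 to 5.14) higher. *Plod1* was 2.35-fold (1.37 to 3.99) and *P4hb* 1.56-fold (1.26 to 1.93) higher, but *P4hb* was not called without its 5 richest cells (1.31-fold) or under a stricter gate. *Lox* and *Plod2* were thus high together in tendon-like cells while *Serpinh1* (ratio 1.06, 0.935 to 1.20) and *Loxl2* (0.877, 0.699 to 1.09) were within 1.5-fold.

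Osteoblasts had 5 of the 10 genes called higher than callus fibroblasts and 1 lower, on a background in which 10.5% of 8986 genes were higher and 53.2% lower. *Plod2* was 4.69-fold (4.002 to 5.52), *Lox* 3.60-fold (3.16 to 4.11), *Crtap* 2.26-fold (1.80 to 2.83), *Serpinh1* 2.24-fold (2.09 to 2.39) and *P4ha1* 2.10-fold (1.71 to 2.58) higher. *Loxl1* was 17.7-fold (11.5 to 28.8) lower. The ratio of *P4ha1* fell under the limit without its 5 richest cells (0.50 on the log2 scale) and in 1 random draw of 2000 UMIs per cell (0.35). Osteoblasts were deeper, at a median of 24991.5 UMIs against 7957.5 in callus fibroblasts, and the same 5 genes were called higher by the mean of CPM over cells, in which each cell counts alike. The median of all genes was −0.65 on the log2 scale. Fibrillar collagen transcripts were 22.4% of osteoblast and 2.95% of callus fibroblast UMIs, which lowers the share of every other gene in osteoblasts. How much of that median this makes up was not tested. Relative to that median, 8 genes were called higher, now also *P4hb*, *Plod1* and *Pcolce*, *Loxl1* was still lower, and *Loxl2* turned from −0.33 to 0.32, not called either way. By rank, *Plod2* exceeded 97.3% of the genes compared, *Lox* 96.7% and *Loxl1* 3.55%. The single intact osteoblast, of 28004 UMIs, had 22 UMIs of *Lox*, 21 of *Plod2*, 64 of *Serpinh1*, 25 of *Loxl2* and 0 of *Loxl1*.

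BMSC showed a different set. Against callus fibroblasts 1 gene was called higher and 4 lower (32.7% of 8731 genes higher, 21.5% lower, median 0.21 on the log2 scale). *Lox* was 442 against 218 CPM, 2.03-fold (1.63 to 2.51) higher. *Loxl2*, at 117 against 356 CPM, was 3.04-fold (2.11 to 4.55) lower, *Pcolce* 1.90-fold (1.48 to 2.48), *P4ha1* 1.66-fold (1.02 to 2.86) and *Plod1* 1.51-fold (0.762 to 3.42) lower. The *P4ha1* and *Plod1* calls were lost under a stricter gate. That of *P4ha1* was also lost with a stricter cell filter (1000 genes and at most 5% mitochondrial UMIs). It was lost as well without the deepest 5% of cells (−0.52 on the log2 scale). Over the settings tried, the log2 ratios of *P4ha1* and *Plod1* came no nearer to 0 than −0.49 and −0.50. *Plod2* and *Crtap* were not called, at ratios of 0.894 (0.593 to 1.30) and 0.802 (0.4699 to 1.30). Osteoblasts were higher than BMSC in 8 of the 10 genes and lower in *Loxl1* (11.2% of 5773 genes higher, 57.5% lower, median −0.76 on the log2 scale). *Plod2* was 5.25-fold (3.65 to 7.81) higher and *Lox* 1.78-fold (1.45 to 2.19). *Serpinh1* was 2.54-fold and *Crtap* 2.82-fold higher. *Plod1*, among the 8, was 1.89-fold (0.923 to 4.35) higher, an interval that includes no difference. *Loxl2*, also among them, was 2.42-fold (1.65 to 3.68) higher, with most of its osteoblast UMIs in 5 cells. Osteoblasts were deeper, at a median of 24991.5 against 6551 UMIs in BMSC, and no alternative setting was run for this comparison. Both groups thus held *Lox* above the level of all callus fibroblasts pooled. *Plod2*, *Serpinh1* and *Crtap* were above that level in osteoblasts and not in BMSC. Tendon-like cells, which are part of that pool, had *Lox* at 678 CPM, above BMSC, and *Plod2* at 302 CPM.

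**Figure D4:**
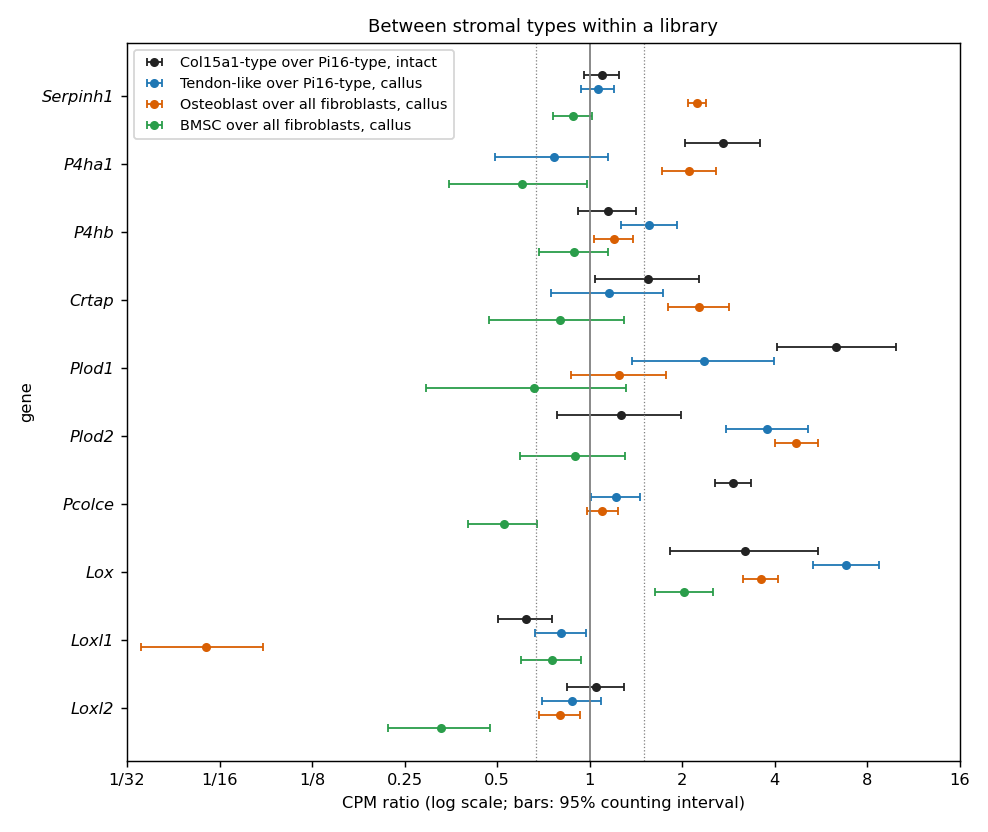
CPM ratio between stromal types of the same library on a log scale, with 95% counting intervals and dotted lines at 1.5-fold. *Lox* is right of 1 in all 4 comparisons, *Plod1* is highest for the *Col15a1* type (6.32), *Plod2* for osteoblasts (4.69) and tendon-like cells (3.77), and *Loxl1* is far left for osteoblasts (0.0564).

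Shares within each enzyme family restate these differences without the total, and use 1 count per molecule because the kit tags each transcript once near its end. Among the 5 lysyl oxidase genes, *Loxl1* held 58.8% (56.2 to 61.3) of the family's UMIs in intact *Pi16*-type cells and *Lox* 2.46% (1.73 to 3.39). In osteoblasts *Lox* held 68.3% (65.1 to 71.3) and *Loxl1* 2.29% (1.42 to 3.48). Tendon-like cells and BMSC had *Lox* at 45.4% and 45.2%, but *Loxl2* at 21.4% (17.9 to 25.3) and 12.0% (8.24 to 16.7). Among lysyl hydroxylases, *Plod2* held 86.7% (83.7 to 89.3) in osteoblasts and 71.3% (63.2 to 78.6) in tendon-like cells, against 44.4% in intact *Pi16*-type cells. *Plod1* led with 54.9% (44.2 to 65.4) in intact *Col15a1*-type cells and with 73.7% (62.3 to 83.1) in callus endothelial cells. Among prolyl 4-hydroxylase alpha chains *P4ha1* held 57.9% to 72.3% in the *Pi16* and *Col15a1* types, BMSC and osteoblasts, but not in tendon-like cells, where it held 40% (28.9 to 52.0) and *P4ha3* reached 16% (8.55 to 26.3).

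**Figure D5:**
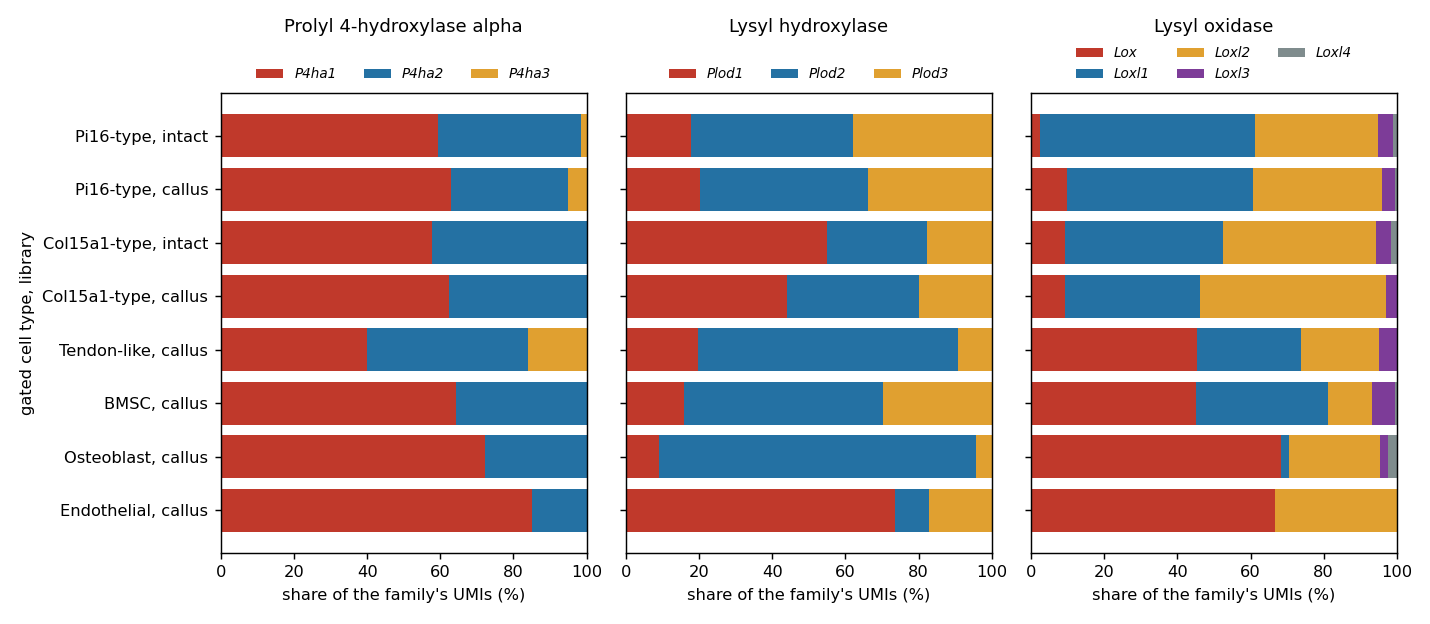
Share of the UMIs of each enzyme family (percent) held by each of its genes, by cell type and library, for prolyl 4-hydroxylase alpha chains, lysyl hydroxylases and lysyl oxidases. *Lox* (red, right panel) widens from 2.46% in intact *Pi16*-type cells to 68.3% in osteoblasts, *Plod2* (blue, middle) holds 86.7% there, and the endothelial lysyl oxidase bar rests on 3 UMIs.

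Over the gated stromal types of at least 10 cells, transcripts of the substrate differed more than those of any of the 10 genes. This rests on osteoblasts and BMSC. Among fibroblast types of that size the substrate ran from 1.56% to 3.79% of UMIs, and *Lox* from 23.4 to 678 CPM. *Serpinh1* ran from 734 to 1033 CPM there, so the genes lay on both sides of the substrate. UMIs of 7 fibrillar collagen genes were 1.56% of all UMIs in intact *Pi16*-type cells, 2.67% in callus *Pi16*-type cells, 3.79% in tendon-like cells and 22.4% in osteoblasts, but only 0.367% in BMSC. Per 1000 fibrillar collagen UMIs, *Serpinh1* therefore stood at 36.5 in callus *Pi16*-type cells, 27.3 in tendon-like cells and 9.84 (9.38 to 10.3) in osteoblasts. It stood at 236 in BMSC. Osteoblasts, the highest of these by CPM, were thus the lowest, while *Pi16*-type and tendon-like cells of the callus overlapped by CPM. *Lox* was 3.74 (3.03 to 4.56) in callus *Pi16*-type cells and 3.50 (3.23 to 3.78) in osteoblasts, 17.9 (15.6 to 20.4) in tendon-like cells and 120.3 (99.2 to 145) in BMSC. Elastin transcripts, the usual substrate of LOXL1, were 517 CPM in intact *Pi16*-type, 3054 CPM in tendon-like and 3.76 CPM in osteoblast cells. The group with the least *Loxl1* was also among the lowest in elastin, together with BMSC at 3.91 CPM, where *Loxl1* was 352 CPM.

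*Pi16*-type cells were also split by the inflammatory genes *Ptx3*, *Has1* and *Tnfaip6*, at 10 UMIs of these per 10000, into 114 high and 94 low cells in the intact and 56 high and 66 low cells in the callus library. This cuts a range, with 68 and 41 cells between 5 and 20 per 10000. The high cells were deeper, at a median of 8713 against 6106 UMIs in the intact and 9021.5 against 6919 in the callus library, and the part of depth was not tested. In the intact library 1 of the 10 genes, *Crtap*, was called, 1.81-fold (1.24 to 2.66) lower in the high cells (9.72% of 7461 genes lower, 9.96% higher). In the callus 3 were called lower (12.1% of 6173 genes, 10.8% higher): *Lox* by 1.81-fold (1.17 to 2.84), *Plod1* by 1.74-fold (0.823 to 3.85) and *Loxl2* by 1.63-fold (1.31 to 2.04). *Crtap* was not among them, at 94.0 CPM in high and 80.9 CPM in low cells, and *Loxl2* was 328 and 304 CPM in the intact library, so no gene was called in both. Of the 96 *Lox* UMIs in callus *Pi16*-type cells 60 lay in 5 cells, and no alternative setting was run for this split.

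The 35 other genes of collagen biosynthesis that were listed are summarized by the same rule. Between osteoblasts and callus fibroblasts 11 of 31 with enough UMIs were called higher and 8 lower, with a median log2 ratio of 0.32 against −0.65 for all genes. Of all genes, 10.5% were called higher and 53.2% lower there. The largest were *Fkbp11* (12.3-fold), *Fkbp10*, a prolyl isomerase that acts with PLOD2 (352 against 57.5 CPM, 6.12-fold), *P3h1*, the partner of CRTAP (142 against 35.7 CPM, 3.96-fold), and *Creb3l1*, a transcription factor of bone collagen secretion (3.82-fold). *Pcolce2*, the relative of *Pcolce*, was 48.8 against 525 CPM, and the general chaperone *Hspa5* 347 against 904 CPM. *P3h1* thus stood with *Crtap*, and *Fkbp10* with *Plod2*, among the genes higher in osteoblasts. Between intact *Col15a1*-type and *Pi16*-type cells 6 of 26 were higher and 1 lower, where 19.6% and 22.1% of all genes were. *P4ha2* was 184 against 61.1 CPM and *P3h3* 96.9 against 39.0 CPM, and the lower gene, *Pcolce2*, 125 against 924 CPM. *Pcolce* and *Pcolce2* therefore had opposite order in these types. Between callus and intact fibroblasts 2 of 31 were higher and 1 lower (12% and 9.69% of all genes), with a median of 0.14. Of 17 hypoxia genes, listed because *P4ha1*, *Plod2* and *Lox* are known targets of hypoxia-inducible factors, 14 had enough UMIs in callus and intact fibroblasts. Of these, 0 were called higher and 1 lower, beside the same 12% and 9.69% of all genes, with a median of 0.05. Within *Pi16*-type cells 1 of 12 was higher and 2 lower (11.7% and 8.92% of all genes). Within *Col15a1*-type cells 4 of 9 were higher and 2 lower (18.5% and 19.5%). Within fibroblasts between types 2 of 8 were higher and 1 lower (22.5% and 14%). Between osteoblasts and callus fibroblasts 3 of 14 were higher and 7 lower (10.5% and 53.2% of all genes), with a median of −0.75 close to that of all genes. Any part of hypoxia in the levels of the members was not tested.

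Over 19 groups of at least 15 cells of a type and library, the genes with the most similar profile were found by Pearson correlation of log2(CPM + 10) among 10605 genes. These groups share 2 libraries and the stromal and blood division, so the values are descriptions. For *Serpinh1* the closest were *Sparc* (r = 0.994), *Cdr2l* and *Ryk*. For *Loxl1* they were *Klhl13* (0.998), *Serping1* and *Islr*, for *Loxl2* *Col5a1* (0.994), *Mrc2* and *Pcolce*, and for *Pcolce* *Loxl2* (0.985), *Mrc2* and *Pdgfra*. *Plod2* was closest to *Fkbp10* (0.972), *Copz2* and *Ryk*, and *Lox* to *Bgn* (0.967), *Scarf2* and *Fat1*. *P4ha1* was closest to *Crtap* (0.954), *Selenom* and *Laptm4a*, and *Crtap* to *Fkbp9* (0.966), *Copz2* and *Snx7*. *Plod1* was closest to *Plpp1* (0.910), *Fscn1* and *Col15a1*, and *P4hb* to the endoplasmic reticulum genes *Selenof* (0.914), *Txndc15* and *Pdia5*. *Serping1*, *Pdgfra* and *Col15a1*, named here, are on the marker lists that made the groups, so their profiles were set in part by the gates. Among the 10 genes themselves the least similar pair was *Plod1* and *Loxl1* (r = 0.454).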

How the data were processed

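The authors sequenced the libraries with the 10× 3′ kit (version 3) on NovaSeq and deposited Cell Ranger matrices of UMI counts, by gene and by called cell barcode. The file headers give Cell Ranger 6.0.0 and the submitters' notes the build mm10. The annotation release is not given in the sources used here, Seurat is named without a cell filter, and positions were taken from GENCODE vM21. The counts were used as deposited.

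Kept cells were gated by summed UMIs of marker lists. A stromal cell needed 20 UMIs of its list and 4 times those of the blood and endothelial lists, a class 10 UMIs and a fibroblast type 5 UMIs with 2 times the next list, and cells with 50 myofibre UMIs were set aside. Limits were set from marker counts. No doublet caller was run, and the lead over other lists stands in for it. UMIs were summed per type and library, with exact Poisson intervals for CPM, Clopper-Pearson intervals for shares and exact conditional binomial intervals for ratios. A count of 0 was given the limit of 3 counts. All genes with 20 UMIs were compared, and code was tested on simulated data. Of 278 intact and 285 callus stromal cells, 264 and 268 had the 2000 UMIs needed for comparison at equal depth, where shares are exact hypergeometric expectations.

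The members, lists, comparisons and rules were chosen with earlier results of these data known. Named besides the members were, per comparison, up to 5 listed biosynthesis genes each way with 50 UMIs and a ratio of 1.5, and the 3 genes most like each member. Alternatives were other cell filters, gates, scalings, weights and minimum counts. Tools were python 3.11.15, numpy 2.4.6, scipy 1.17.1, pandas 2.3.3 and matplotlib 3.10.9.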

Additional observations from a re-analysis of the deposited data

Results flagged for a closer look

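4 values came from cells outside the gated types and lay above the level in blood cells. Without *P4hb*, the other 9 genes summed to 36.6 CPM in intact and 37.3 CPM in callus blood cells. In cells that met no gate they summed to 269.7 CPM (233 to 311) in the intact and 300.7 CPM (278 to 324) in the callus library. In callus cells with much myofibre RNA they summed to 77.9 CPM (62.0 to 96.7), and in callus barcodes removed by the filter to 77.5 CPM (66.8 to 89.4). These cells entered no comparison, and their identity was not tested.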

How the results depend on the processing

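No paired analysis was possible because each condition has 1 library. Under 13 alternative settings, 534 of 620 log2 ratios of the 10 genes stayed within their counting interval, and 100 of 124 counts of called genes stayed within 1.5 times. A call limit of 2-fold and no minimum count change only the call rule, so the 20 log2 ratios under each could not move. Settings that left out the 5 richest cells, rescaled osteoblast and BMSC ratios to the median gene, or left out collagen, osteocalcin and *Sparc* UMIs were chosen after seeing the data. Leaving out 5 cells takes a larger part of a small group, such as 5 of 40 BMSC against 5 of 196 callus fibroblasts. It can therefore lower the ratios of the smaller group by itself. Thinning used 1 random draw of 2000 UMIs per cell, so its values also carry the error of that draw, and the mean over cells is its counterpart with no draw.

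For callus over intact, equal weights of the *Pi16*, *Col15a1* and tendon-like types left out fibroblasts between types. They gave 1 gene higher (*Plod2*) and 2 lower (*Pcolce*, *Crtap*), with *Lox* reversed to −0.48. Subtracting the blood level gave 1 lower over all fibroblasts and, in the *Pi16* type, 2 higher (*Plod1*, *Lox*) and 1 lower, the lower gene being *P4hb* each time. Thinning gave 2 higher in the *Pi16* type (*P4ha1*, *Lox*).

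For *Col15a1*-type over *Pi16*-type cells, thinning and leaving out the deepest 5% of cells each gave 0 lower in the intact library. In the callus, a stricter gate, thinning, the mean over cells and leaving out the deepest 5% each gave 1 lower (*Loxl1*). *Lox* turned to 0.56 with thinning and to 0.23 without its 5 richest cells. In both settings no *Lox* UMI was left in *Col15a1*-type cells, and a floor of 3 counts stood in. By the mean over cells *Lox* was at −0.57. *Pcolce* turned to −0.094 without its own 5 richest cells, and leaving out 5 cells gave 1 higher and 5 lower. For tendon-like over *Pi16*-type cells, thinning gave 2 lower (*P4ha1*, *Loxl2*), and the mean over cells and leaving out 5 cells each gave 1 (*P4ha1*).

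For osteoblasts over fibroblasts, thinning, leaving out the deepest 5% and leaving out 5 cells each gave 2 lower (*Loxl1*, *Loxl2*), and both other scalings gave 8 higher. For BMSC over fibroblasts a stricter gate gave 2 lower and leaving out 5 cells 7 lower. The cause of these changes was not tested, apart from the draw and the fewer cells or changed totals that the settings themselves bring.

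Depth limits the 4 intact tendon-like cells, with 3 to 47 UMIs per gene, and the 13 callus *Col15a1*-type cells, with 6 to 95. Intervals cover counting error and not the spread between mice.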
